A study of Homo sapiens with 8 samples.

Results

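The genes described here are the 8 human NKG2D ligand genes, taken by symbol from the count files: MICA, MICB, ULBP1, ULBP2, ULBP3, RAET1E, RAET1G and RAET1L, 8 of 59050 gene symbols counted. They were measured by RNA sequencing of 8 tumours grown as xenografts from cells of the established human lung cancer line H2122. In 4 tumours the cells were parental, labelled wild type, and in the other 4 the gene SMARCA4, the ATPase of a SWI/SNF chromatin remodelling complex, had been knocked out. All 8 tumours had received vehicle only, so the groups differ by the SMARCA4 genotype as labelled. The host strain, the immune cells the host still had, the way the gene was disrupted and whether the knockout cells were 1 clone are not given in the sources used here. Nothing in the labels says that replicates came from separate animals, so p-values measure the spread between these tumours.

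NKG2D is an activating receptor of natural killer (NK) cells and of some T cells. Its ligands are relatives of MHC class I heavy chains that healthy cells show at low levels and that stressed, infected or transformed cells can place on their surface, where they mark the cell for killing. MICA and MICB are transmembrane proteins encoded within the MHC. The ULBP and RAET1 genes form a separate family whose proteins reach the membrane through a lipid anchor or a transmembrane segment. Tumour cells can also release ligands from the surface by proteolysis, and RNA counts say nothing of how much protein stands on the surface.

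All 8 genes lie on chromosome 6 (GENCODE 29, GRCh38). MICA (ENSG00000204520) spans 31399784 to 31415315 and MICB (ENSG00000204516) spans 31494881 to 31511124, both on the plus strand, and together they cover 111.3 kb. The ULBP and RAET1 genes cover 185.7 kb on the other arm. In order they are RAET1E (ENSG00000164520, 149883375 to 149898102, minus strand), RAET1G (ENSG00000203722, 149916878 to 149923121, minus), ULBP2 (ENSG00000131015, 149942000 to 149949235, plus), ULBP1 (ENSG00000111981, 149964007 to 149973710, plus), RAET1L (ENSG00000155918, 150018334 to 150025532, minus) and ULBP3 (ENSG00000131019, 150063150 to 150069095, minus).

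The promoters of the 3 genes that changed are shown with that of ULBP3, an abundant family member that was not called. Each line gives the 250 bases before the start in RefSeq (GRCh38.p14), read 5′ to 3′ on the gene's strand. Capitals mark the heat shock element core GAANNTTC and the GC box GGGCGG, read as CCGCCC on the opposite strand. The stretches are chr6:31403345-31403594 (plus) for MICA, chr6:31497895-31498144 (plus) for MICB, chr6:149898114-149898363 (minus) for RAET1E and chr6:150069122-150069371 (minus) for ULBP3. For MICA and MICB the RefSeq start lies inside the longer GENCODE gene, and for RAET1E 3 starts are listed, of which the one farthest upstream is shown.
MICA: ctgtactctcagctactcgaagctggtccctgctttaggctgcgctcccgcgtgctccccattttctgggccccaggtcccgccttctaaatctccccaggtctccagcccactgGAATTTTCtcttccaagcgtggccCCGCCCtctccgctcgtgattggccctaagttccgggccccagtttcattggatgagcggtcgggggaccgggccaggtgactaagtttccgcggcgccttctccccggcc
MICB: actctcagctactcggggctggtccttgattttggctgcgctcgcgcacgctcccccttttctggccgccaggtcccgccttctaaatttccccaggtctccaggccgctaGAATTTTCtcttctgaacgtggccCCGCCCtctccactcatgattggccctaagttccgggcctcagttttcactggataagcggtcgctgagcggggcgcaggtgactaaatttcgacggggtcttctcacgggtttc
RAET1E: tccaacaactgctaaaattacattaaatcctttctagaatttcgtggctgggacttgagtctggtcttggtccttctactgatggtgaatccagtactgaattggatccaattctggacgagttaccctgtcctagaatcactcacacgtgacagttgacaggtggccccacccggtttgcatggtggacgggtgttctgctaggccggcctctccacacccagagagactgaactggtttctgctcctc
ULBP3: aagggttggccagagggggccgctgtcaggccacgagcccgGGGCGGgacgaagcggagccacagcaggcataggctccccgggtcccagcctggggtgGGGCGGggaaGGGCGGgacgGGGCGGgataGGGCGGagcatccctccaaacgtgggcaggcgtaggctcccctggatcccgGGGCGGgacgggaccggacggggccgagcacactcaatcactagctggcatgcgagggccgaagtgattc

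The 2 MIC promoters were alike: 210 of 250 aligned bases were identical (84%), while the next closest pair of promoters in the set, RAET1G and ULBP2, shared 59.2%. Both hold GAATTTTC, a match to the heat shock element core, 135 to 128 bases before the start in MICA and 139 to 132 in MICB. This core occurred in 5.78% of 35116 promoters of the same length. In both MIC genes a GC box follows, at 111 to 106 and 115 to 110 bases before the start. None of the ULBP or RAET1 windows holds the heat shock core. GC boxes, found in 42.6% of promoters, number 6 in ULBP3, 2 in ULBP1 and 1 each in RAET1G and ULBP2. RAET1E as shown holds neither marked motif, and has an E-box, CACGTG, 105 to 100 bases before its start (6.35% of promoters). AP-1 matches of the form TGANTCA (6.57% of promoters) stand in RAET1L and before another of the RAET1E starts. Matches to the NF-kB consensus (9.96% of promoters) stand in ULBP1 and in ULBP3, there 117 to 108 bases before the start. Neither TGACGTCA (cyclic AMP response element, 1.65%) nor TGATGNAAT (amino acid response element, 0.889%) was found in any of these windows. Both strands were searched, and a match is a stretch of letters, not a measured binding site.

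The parental libraries held 19785922 to 23191698 gene counts and the knockout libraries 20662882 to 21981123, and 79.1% to 85.2% of reads were assigned to a gene. SMARCA4 itself was at 220.4, 228.7, 198.5 and 235.3 CPM, the normalised read count used throughout (counts relative to the TMM-scaled library size), in the parental tumours and at 29.58, 26.18, 22.31 and 31.09 CPM in the knockout tumours. The knockout tumours were thus lower by a log2 difference of -3.02 (SE 0.117; adjusted p = 1.45e-07 by edgeR), and each library matched its label. Markers of epithelial cells summed to 5757 to 6930 CPM in parental and 4635 to 6238 CPM in knockout tumours. The lung adenocarcinoma marker NKX2-1 was listed at 0 in each of the 8 libraries (a 0 is compatible with as many as 3 counts). Of 7 tested epithelial markers, KRT7 and KRT19 were called lower in the knockout and 5 were not called. The median log2 fold change of these markers was 0.08. Leukocyte and macrophage markers summed to 12.3 to 80.5 CPM in parental tumours, highest in parental 2 and 3. In knockout tumours they summed to 23.1 to 39.5 CPM, with 0 of 9 tested markers called by edgeR. Beside these marker counts, 27.0% of all tested genes were called, and 14.1% were called lower. With so wide a parental spread, a count of 0 called does not show equal leukocyte content.

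Of the 8 ligand genes, 7 passed the filter on low counts and 3 of these were called changed at an adjusted p under 0.05: MICA, MICB and RAET1E, all higher in the knockout tumours. Over all 16219 genes tested, 27.0% were called, 13.0% as higher and 14.1% as lower. No ligand gene was called lower. The CPM ranges of the groups did not overlap for 4 of the 7, the 3 named and RAET1G, against 29.3% of all genes. The median log2 fold change over the 7 was 0.26, beside 0.0035 over all genes tested. ULBP1 did not pass the filter, which asked for a CPM of about 0.467 in at least 4 libraries. MICB reached that level in 2 parental and all 4 knockout libraries, so it entered the test through the group in which it was higher. In a bulk tumour, fewer cells of a type and less RNA per cell cannot be told apart.

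**Figure D1:**
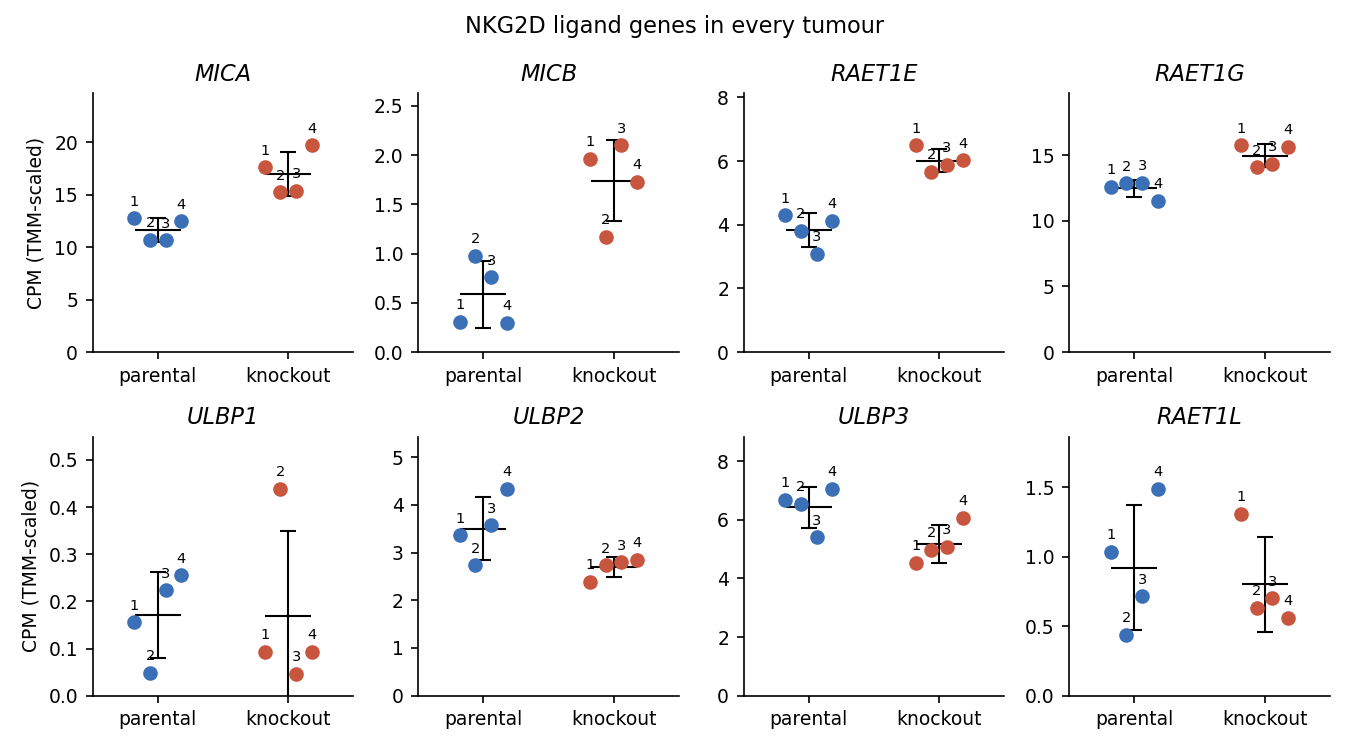
CPM of each ligand gene (vertical axes, CPM of the TMM-scaled library, each starting at 0) in the 4 parental and 4 knockout tumours; points are tumours with their replicate number, and bars are the mean ± SD. MICA, MICB, RAET1E and RAET1G have knockout points that all lie above the parental points, and the other 4 genes overlap.

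MICA, a stress-inducible transmembrane ligand, rose in the knockout tumours. It stood at 12.74, 10.69, 10.67 and 12.46 CPM in parental tumours 1 to 4 and at 17.61, 15.21, 15.35 and 19.70 CPM in knockout tumours 1 to 4. The lowest knockout tumour lay above the highest parental one. The means were 11.6 ± 1.11 and 17.0 ± 2.13 CPM (SD, n = 4 each). On the log2 scale the difference was 0.54 (SE 0.123; adjusted p = 0.00693 by edgeR), 1.46-fold. The exact two-sided permutation test gave p = 0.0286, the smallest that 4 against 4 tumours allow. Exact permutation p-values of single genes are not adjusted, here and below.

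MICB, the near copy of MICA, had the largest fold change among the tested ligand genes, from a low level. Its parental values were 0.311, 0.977, 0.759 and 0.298 CPM, which are 6, 20, 17 and 7 counts. The knockout values were 1.96, 1.17, 2.1 and 1.73 CPM, or 42, 24, 45 and 37 counts. The groups did not overlap, although parental 2 and knockout 2 lay close. Its log2 fold change reached 1.56 (SE 0.380; adjusted p = 0.0102 by edgeR), or 2.96-fold, and the exact permutation p was 0.0286. The pooled counts gave a ratio of 2.99 with a 95% interval of 2.16 to 4.21 that covers counting error only. No molecular identifiers were read, so amplified copies of a fragment count more than once and such intervals are minimum widths.

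MICB differed within the parental group along with the leukocyte markers: the parental tumours with more MICB, 2 and 3, were those with the highest leukocyte and macrophage score (mean log2 CPM of 9 markers), 2.95 and 2.57, against 0.41 and 0.0053 in parental 1 and 4. The knockout scores were 1.83, 1.53, 1.34 and 0.879, inside the parental range. After each group's mean was subtracted, MICB followed the score over the 8 libraries with r = 0.863, whereas MICA had r = -0.673, RAET1E r = -0.613 and RAET1G r = 0.498. With the score as a covariate, the MICB difference was 1.77 (edgeR adjusted p = 0.000906), that of MICA 0.54 (adjusted p = 0.00317) and that of RAET1E 0.65 (adjusted p = 0.00553). Without parental 2 and 3, a setting chosen after the data were seen, the MICB difference was 2.49 (edgeR adjusted p = 0.00118), and MICA and RAET1E were at 0.42 (adjusted p = 0.0458) and 0.51 (adjusted p = 0.0422).

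Apart from MICA and MICB, RAET1E was the other ligand gene that rose. RAET1E encodes a family member with a transmembrane segment. It was at 4.30, 3.81, 3.08 and 4.12 CPM in the parental tumours and at 6.50, 5.66, 5.88 and 6.02 CPM in the knockout tumours, with no overlap. The means were 3.83 ± 0.537 and 6.01 ± 0.355 CPM (SD, n = 4 each). The fitted log2 difference of 0.65 (SE 0.153; adjusted p = 0.00855 by edgeR) is 1.57-fold, with an exact permutation p of 0.0286. Of its annotated exon bases 35.8% are shared with other genes, most of them with AL355312.5 on the same strand, a gene listed at 0 in all 8 libraries. Reads listed as ambiguous between genes, 3.98% to 4.31% of each library, were kept apart from the gene counts. How many of them came from RAET1E is not given, so its level per kilobase can be understated.

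RAET1G, the neighbour of RAET1E, was higher in every knockout tumour than in any parental tumour but was not called. Its values were 12.58, 12.84, 12.91 and 11.52 CPM in parental tumours and 15.75, 14.09, 14.33 and 15.64 CPM in knockout tumours. This is 12.5 ± 0.643 against 14.95 ± 0.863 CPM (SD, n = 4 each), or 1.20-fold. Its log2 fold change of 0.26 (SE 0.10) had an edgeR p of 0.0236, which is 0.0752 after adjustment over all genes. The exact permutation p, which is not adjusted, was 0.0286. The adjusted p stayed above 0.05 in 10 other analyses of all tumours and in 8 fits without 1 tumour.

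**Figure D2:**
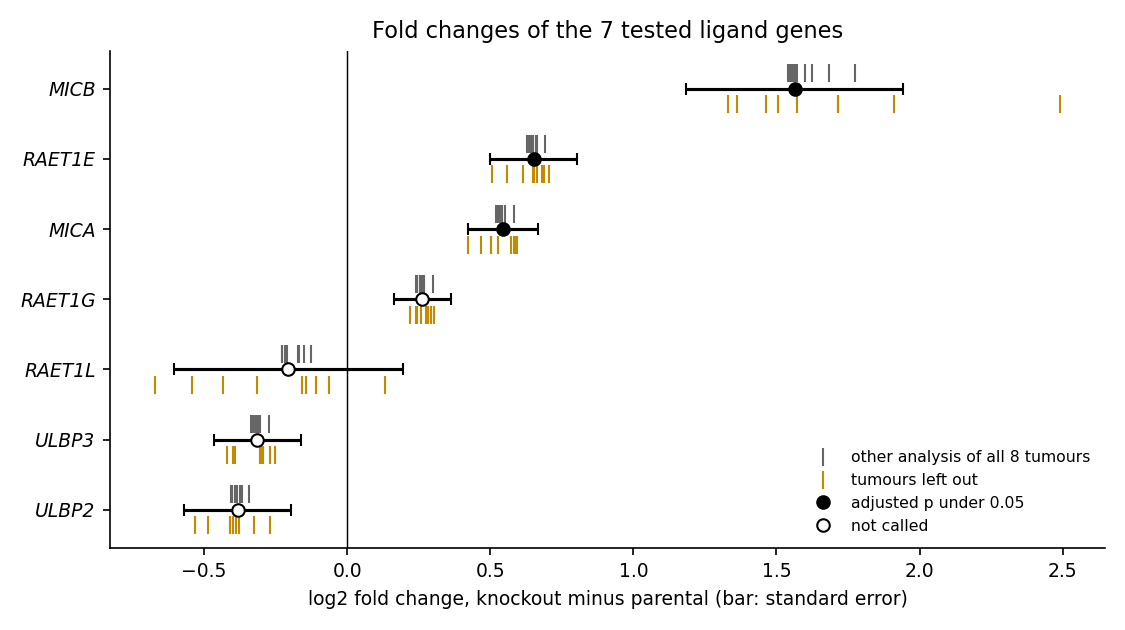
The log2 fold change of each of the 7 tested ligand genes (knockout minus parental, horizontal axis), with bars of 1 standard error; filled points are called at an adjusted p under 0.05, grey ticks are other analyses of all 8 tumours and gold ticks are fits with tumours left out. MICB (1.56), RAET1E (0.65) and MICA (0.54) are filled, and among the ticks RAET1L alone crosses 0.

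ULBP2 and ULBP3 encode lipid-anchored ligands. ULBP2 was at 3.37, 2.73, 3.57 and 4.34 CPM in parental tumours and at 2.38, 2.73, 2.80 and 2.85 CPM in knockout tumours. Parental 2, the lowest of its group, lay below knockout 3 and 4, and the other parental tumours lay above all knockout ones. It differed by -0.38 on the log2 scale (SE 0.187; edgeR adjusted p = 0.159, exact permutation p = 0.0857).

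ULBP3 was at 6.68, 6.54, 5.40 and 7.06 CPM in parental tumours and at 4.53, 4.97, 5.09 and 6.07 CPM in knockout tumours. Knockout 4 lay above parental 3, and the other 3 knockout tumours lay below all parental ones. Its log2 fold change came to -0.31 (SE 0.151; edgeR adjusted p = 0.153, exact permutation p = 0.0571). Neither gene was called, and the 2 point estimates lay on the opposite side of 0 from those of the MIC genes.

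RAET1L, close in sequence to ULBP2, gave 1.04, 0.439, 0.715 and 1.49 CPM in parental tumours and 1.31, 0.634, 0.700 and 0.560 CPM in knockout tumours. The spread within each group exceeded the difference between them (log2 fold change -0.21, SE 0.401, edgeR adjusted p = 0.750). The estimate turned positive, to 0.13, when parental 4 was left out. With 9 to 35 counts per library, its standard error is close to the size of the change seen in MICA, and a difference of that size was not detectable.

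ULBP1 was barely detected, with 3, 1, 5 and 6 counts in the parental libraries and 2, 9, 1 and 2 in the knockout libraries. The pooled ratio was 0.944 (15 against 14 counts, 95% counting interval 0.422 to 2.1), and the exact permutation p was 0.971. The ratio was 0.445 without knockout 2, which holds 9 of the 14 knockout counts. No difference was detectable at this depth.

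The reading of ULBP2 and RAET1L is limited by their likeness. Their coding sequences agree at 714 of 738 bases (96.75%), and 32.2% of the 50-base words in ULBP2 transcripts and 31.5% of those in RAET1L also occur in another gene, most of them in each other. RAET1G matched RAET1L at 94.7% and ULBP2 at 94.6% of aligned coding bases, and shared 18.3% of its words. MICA and MICB matched at 92.1% of aligned coding bases, but 2.64% and 2.94% of their words occur elsewhere, so the longer stretches that they share are few. Reads without a unique alignment made up 4.52% to 8.11% of each library and were not counted.

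The levels of the genes were compared per kilobase of exon, since longer genes collect more reads. RAET1G had the highest level in both groups, at 8.39 ± 0.433 CPM per kb for the parental and 10.1 ± 0.581 for the knockout group (SD, n = 4 each). In parental tumours ULBP3 followed with 6.50 ± 0.721 and then MICA with 4.88 ± 0.466 CPM per kb. In knockout tumours this order was turned, with MICA at 7.11 ± 0.892 and ULBP3 at 5.23 ± 0.656 CPM per kb. In each group the ranges of the 2 genes did not overlap. With the longest transcript as length the order of all 8 genes was the same, but the parental ranges of ULBP3 and MICA overlapped (ULBP3 from 5.47, MICA up to 5.64 CPM per kb), as did those of ULBP2 and RAET1E, while 2 other pairs of neighbours separated.

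Below them came ULBP2, at 2.60 ± 0.490 CPM per kb in parental and 1.99 ± 0.156 in knockout tumours. RAET1E was at 1.27 ± 0.179 CPM per kb in parental tumours, below ULBP2, and at 2.0 ± 0.118 in knockout tumours, where the ranges of the 2 genes overlapped. MICB, RAET1L and ULBP1 stood at the low end. MICB was at 0.209 ± 0.121 and 0.622 ± 0.147 CPM per kb, and its range overlapped that of RAET1L (0.683 ± 0.335 and 0.595 ± 0.255) in both groups. RAET1E and RAET1L overlapped in the parental group. ULBP1 was last, at 0.0543 ± 0.0290 and 0.0535 ± 0.0579 CPM per kb. With joined exons, the remaining neighbours in each order had ranges that did not overlap. Among all tested genes the average CPM of MICA stood at percentile 45.4, that of RAET1G at 44.7 and that of MICB at 13.3, on a scale not divided by length.

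The summed level of the 8 genes was 24.6 ± 1.34 CPM per kb in parental tumours (23.18 to 26.00) and 27.7 ± 1.90 in knockout tumours (25.82 to 30.10), and these ranges overlapped. They did not overlap with the longest transcript as length (26.91 to 29.61 against 30.32 to 35.14 CPM per kb) or for the sum of plain CPM (37.34 to 41.54 against 44.90 to 52.66), so the separation of the total depends on how length is counted. The 2 MIC genes summed to 5.09 ± 0.352 CPM per kb in parental and 7.73 ± 0.932 in knockout tumours. The 6 ULBP and RAET1 genes summed to 19.5 ± 1.02 and 19.9 ± 0.975 CPM per kb. As a share of the ligand total, MICA went from 19.8% ± 0.932 to 25.6% ± 1.46 and RAET1E from 5.17% ± 0.518 to 7.25% ± 0.424. The share of ULBP3 went from 26.4% ± 1.94 to 18.9% ± 1.81 and that of ULBP2 from 10.5% ± 1.70 to 7.23% ± 0.752, while RAET1G took 34.3% ± 3.44 and 36.4% ± 1.09. These sums and shares are given as a description, without a test.

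**Figure D3:**
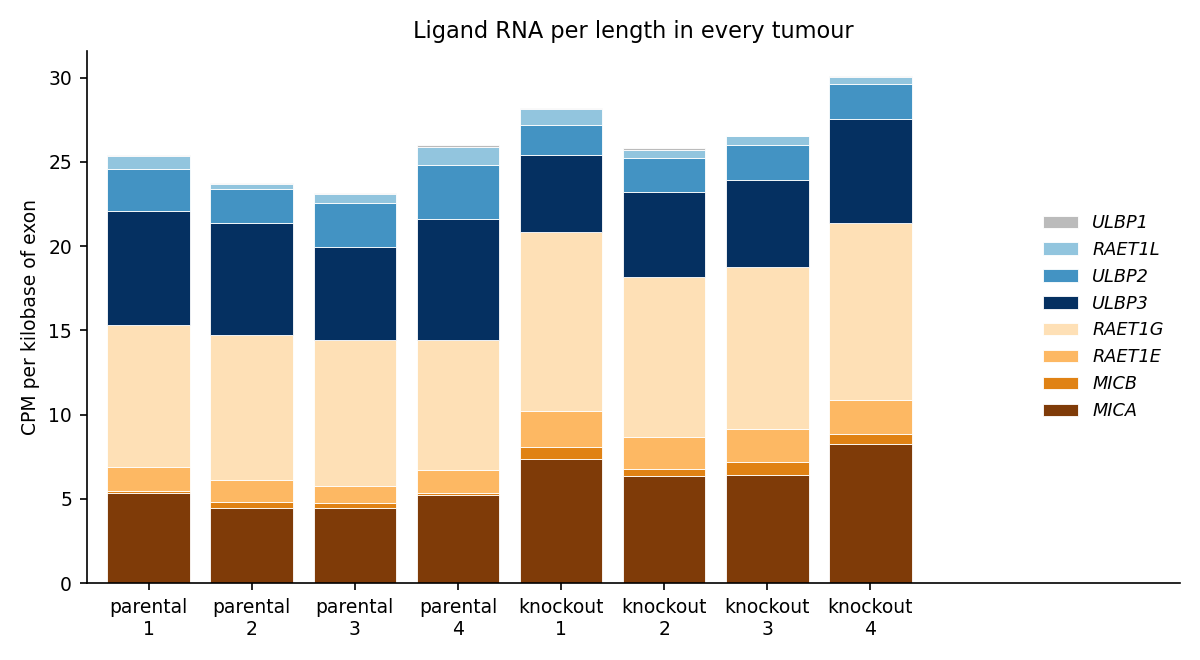
Stacked level of the 8 ligand genes per length (vertical axis, CPM per kilobase of exon, from 0) in each tumour; each colour is a gene. The MICA segment is taller in the 4 knockout tumours (6.375 to 8.257) than in the 4 parental tumours (4.474 to 5.339), and RAET1G is the largest segment in all 8.

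Whether the genes responded differently from each other was tested on the log2 ratio of each pair within a tumour, over 21 pairs. For 10 pairs the ratios of the groups did not overlap, each with the smallest exact permutation p of 0.0286, which is 0.06 after adjustment over the pairs. None was under 0.05 after adjustment, but with 4 against 4 tumours at least 13 of the 21 pairs would have had to reach the smallest p for any to do so, so this outcome says little about the pairs. The pairs share genes, so they are not independent, and the share of all gene pairs without overlap was not computed. For single genes, 29.3% of all those tested had ranges that did not overlap. The differences that follow are thus a description. The MICA to ULBP3 ratio differed by 0.85 and the MICA to ULBP2 ratio by 0.90 on the log2 scale, both higher in the knockout. MICB against ULBP2 differed by 2.04, and MICB against ULBP3 by 1.99. RAET1E differed in the same direction, with the ULBP2 to RAET1E ratio lower by a difference of -1.02 and the ULBP3 to RAET1E ratio by -0.97. RAET1E and RAET1G, next to each other on the chromosome, also had ratios that did not overlap (0.40). MICA and RAET1E differed by -0.12 (exact permutation adjusted p = 0.353), and ULBP2 and ULBP3 by -0.05 (adjusted p = 0.800).

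Within groups the ligand genes varied together only in part. After the group means were subtracted, MICA had r = 0.627 with RAET1E, 0.610 with ULBP3 and -0.443 with MICB over the 8 libraries. MICB had r = 0.592 with RAET1G and -0.632 with ULBP2. These points share depth and scaling within a library and are few, so the values are a description. By the same measure, over genes whose mean log2 CPM was 1 or more, the genes most like MICA were DDX27 (0.979) and VPS4A (0.970), and those most like MICB were TCTA (0.983) and PBXIP1 (0.979). NAP1L1 (0.984) was most like RAET1E, and ST3GAL2 (0.973) and AC083862.3 (0.960) were most like RAET1G. For ULBP2 they were TIMM8A (0.997) and RPIA (0.985), for ULBP3 ELOVL6 (0.986) and RBBP6 (0.978), and for RAET1L RNF223 (0.986) and SARS (0.969). With this many genes to choose from and 8 libraries, each tested ligand gene had a match of 0.960 or more.

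Neighbouring genes were examined within 250 kb of each cluster, a window chosen after the data were seen. Around MICA and MICB, 23 other tested genes had a median log2 fold change of 0.01. Of these, 2 were called higher, DDX39B (0.62, edgeR adjusted p = 0.0262), an RNA helicase, and MSH5 (0.87, adjusted p = 0.0262), a meiotic mismatch repair protein, and 0 were called lower. HCP5, a transcript that overlaps MICA, was at 4.70 ± 3.82 CPM under the parental and 2.26 ± 0.750 CPM under the knockout genotype (SD, n = 4 each, edgeR adjusted p = 0.168). Around the ULBP and RAET1 genes, 8 other tested genes had a median of -0.08. There, 0 were called higher and AL355312.4 was called lower (-1.13, edgeR adjusted p = 0.00938). Beside these counts among 23 and 8 neighbours, 13.0% of all tested genes were called higher and 14.1% lower. The calls of DDX39B and MSH5 were lost when parental 1 or knockout 1, 2 or 4 was left out (adjusted p up to 0.0655 and 0.0748).

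**Figure D4:**
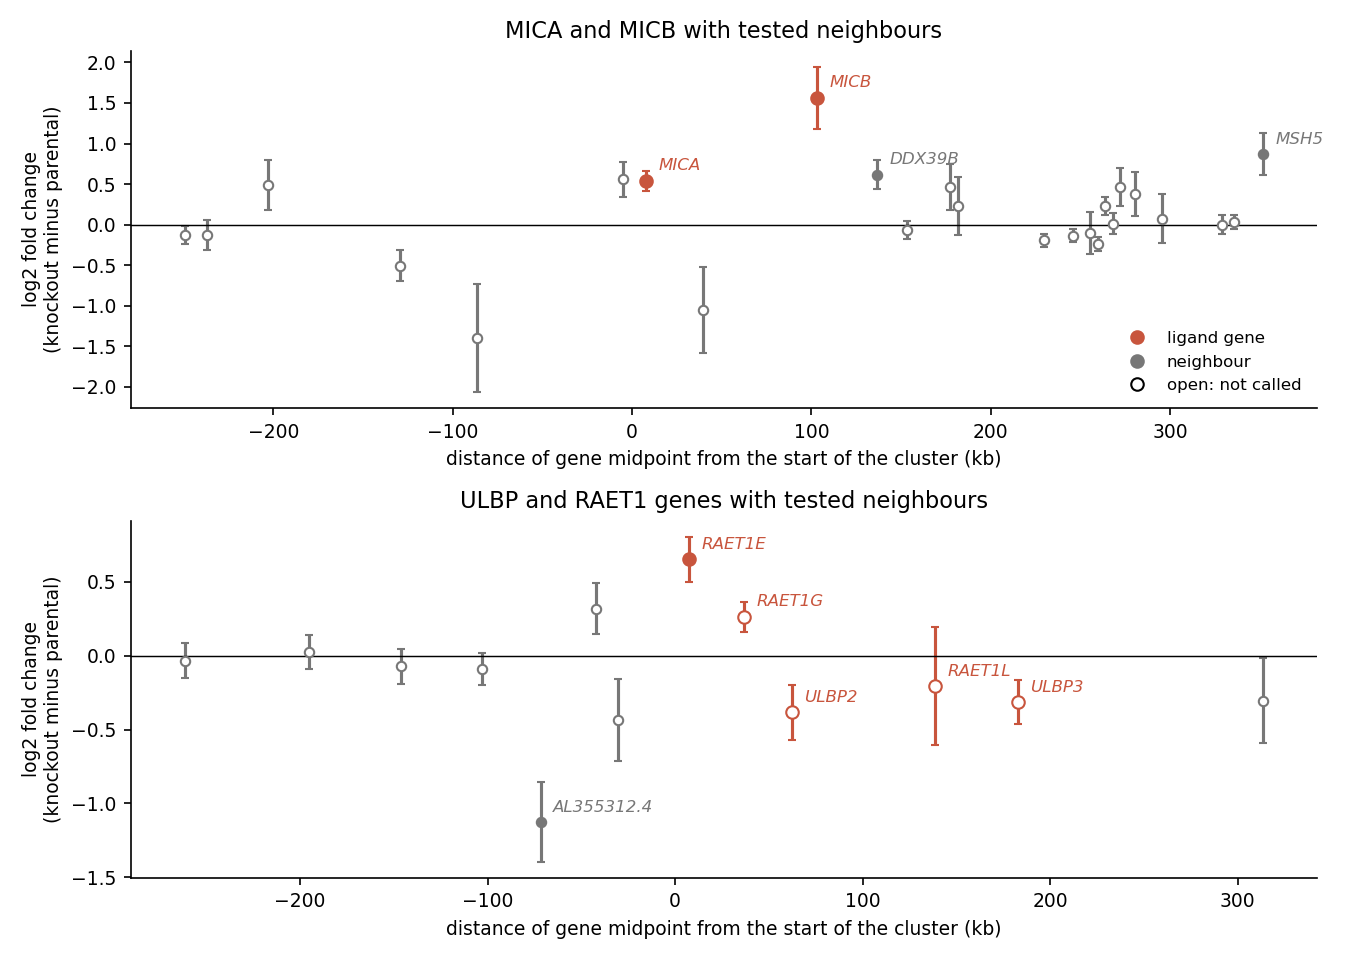
The log2 fold change (knockout minus parental, vertical axis, bars of 1 standard error) of ligand genes in red and tested neighbours in grey against the distance of the gene's midpoint from the start of the cluster in kb; filled points are called. MICA and MICB are filled among mostly open neighbours in the upper panel, and RAET1E (0.65) and AL355312.4 (-1.13) are the filled points in the lower panel.

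Of the 4 genes whose products release ligands from the cell surface, MMP14 rose, from 67.1 ± 12.7 to 93.0 ± 11.6 CPM (SD, n = 4 each; log2 fold change 0.47, edgeR adjusted p = 0.0250). MMP14 is a membrane metalloproteinase. This call was lost without parental 1, parental 4, knockout 1 or knockout 3 (adjusted p up to 0.0760). The proteases ADAM10 and ADAM17 were at 0.28 (edgeR adjusted p = 0.0849) and 0.25 (adjusted p = 0.0652). PDIA6, a disulfide isomerase that takes part in MICA release, was at 0.01 (edgeR adjusted p = 0.921). A count of 1 called in 4 is near the 27.0% called over all genes.

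Among 17 genes known to regulate ligand expression, 3 fell, 0 rose and 14 were not called (median log2 fold change -0.07). A count of 3 in 17 is near the 14.1% called lower over all genes. HSF1, the factor that binds heat shock elements, was at 94.25, 84.51, 95.04 and 88.73 CPM in parental tumours and at 75.27, 66.74, 68.09 and 67.64 CPM in knockout tumours. It fell by 0.38 on the log2 scale (edgeR adjusted p = 0.00399), without overlap. ATR, a kinase of the DNA damage response, was at -0.28 (edgeR adjusted p = 0.0478) and HDAC3, a histone deacetylase, at -0.24 (adjusted p = 0.0378).

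The ATR and HDAC3 calls ended in several other analyses, among them upper-quartile scaling (edgeR adjusted p = 0.0857 and 0.0765) and no filter on low counts (adjusted p = 0.0638 and 0.0975). That of ATR was lost without parental 2 or 4 or any of the 4 knockout libraries (edgeR adjusted p up to 0.129). That of HDAC3 was lost without parental 3 or 4 or any of the 4 knockout libraries (edgeR adjusted p up to 0.103). Of the uncalled regulators with the smallest p, RELA was at 0.25 (edgeR adjusted p = 0.0791), MYC at -0.35 (adjusted p = 0.111), CHEK1 at 0.31 (adjusted p = 0.116) and DICER1 at -0.19 (adjusted p = 0.18).

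Other ligands that NK cells read did not move in 1 direction. Of 8 tested ligands of other activating or adhesion receptors, 1 rose and 1 fell, where 13.0% of all genes were called higher and 14.1% lower. NECTIN2, a ligand of DNAM-1, was at 48.06, 63.37, 61.77 and 42.26 CPM in parental tumours and at 36.82, 34.18, 36.50 and 32.86 CPM in knockout tumours. It fell by 0.62 on the log2 scale (edgeR adjusted p = 0.00441). Without parental 2 and 3, the tumours with the most leukocyte markers, the value was -0.37 and NECTIN2 stayed called (edgeR adjusted p = 0.0225). Adding the leukocyte score to the fit gave -0.58 (edgeR adjusted p = 0.000155). The NECTIN2 call also held in every fit without 1 library (edgeR adjusted p up to 0.0164). CD58, the ligand of CD2, rose from 22.7 ± 2.95 to 29.2 ± 2.52 CPM (SD, n = 4 each; log2 fold change 0.36, edgeR adjusted p = 0.0311), with parental 4 above the lowest knockout tumour. That call was lost without parental 1, 2 or 3 or knockout 1, 2 or 3 (adjusted p up to 0.0973). PVR, the other DNAM-1 ligand, was at 0.25 (edgeR adjusted p = 0.0632), CLEC2B at 0.51 (adjusted p = 0.243), BAG6 at -0.14 (adjusted p = 0.233) and CD48 at -0.89 (adjusted p = 0.287).

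Of 4 tested ligands of inhibitory NK receptors, 0 were called by edgeR, although 2, HLA-E and HLA-C, had an unadjusted p under 0.05 and DESeq2 called 2. HLA-E was at 137.9, 224.7, 226.2 and 111.0 CPM in parental tumours and at 110.2, 123.2, 123.7 and 111.5 CPM in knockout tumours. Parental 2 and 3, the tumours with the most leukocyte markers, held the highest values, and the groups overlapped. The log2 difference of HLA-E was -0.58 (edgeR adjusted p = 0.0542), that of HLA-C -0.51 (adjusted p = 0.0702), that of HLA-B -1.39 (adjusted p = 0.151) and that of CLEC2D 0.22 (adjusted p = 0.348). Without parental 2 and 3, HLA-E and HLA-C were at -0.09 and -0.10, and HLA-B turned to 0.76. HLA reads can be split or lost between near copies and alleles.

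**Figure D5:**
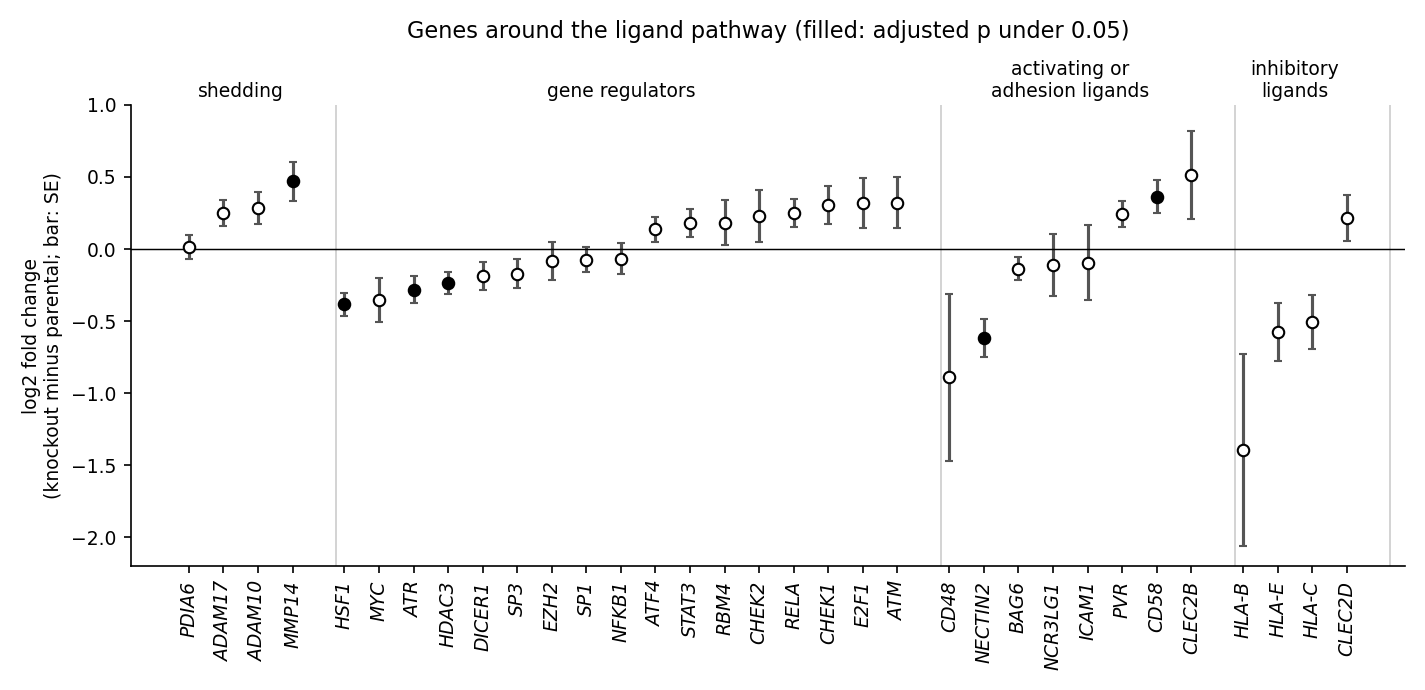
The log2 fold change (knockout minus parental, vertical axis, bars of 1 standard error) of tested genes from the lists of ligand shedding, gene regulation, other activating or adhesion ligands and inhibitory ligands; filled points are called at an adjusted p under 0.05. MMP14 (0.47) and CD58 (0.36) are filled above 0, and HSF1 (-0.38), ATR (-0.28), HDAC3 (-0.24) and NECTIN2 (-0.62) are filled below 0.

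The receptor itself was near absent from the counts. KLRK1, which encodes NKG2D, had 0, 4, 0 and 0 counts in the parental libraries and 1, 2, 2 and 2 in the knockout libraries. The adaptors HCST and TYROBP were tested and not called (edgeR adjusted p = 0.347 and 0.216). NK cell markers summed to 5.49 to 25.5 CPM in parental and 18.5 to 47.1 CPM in knockout tumours. The mean sums were 13.55 and 28.73 CPM, and GNLY alone made up 5.90 and 18.4 CPM of them. Of 7 tested NK markers 1 was called, GNLY, which encodes granulysin, at 3.73, 11.82, 5.45 and 2.59 CPM in parental and 14.11, 33.10, 15.45 and 11.02 CPM in knockout tumours (log2 fold change 1.65, edgeR adjusted p = 0.0190). The GNLY call was lost without parental 1 or knockout 2 (edgeR adjusted p up to 0.0637). Which cells the GNLY counts came from was not tested, so the NK marker sums are not a measure of NK cell number. The other 6 tested NK markers were not called, and the share called higher over all genes was 13.0%. Fibroblast markers summed to 179 to 607 CPM and 343 to 603 CPM, with LUM called higher. The other 3 tested fibroblast markers were not called, with log2 fold changes of 0.34 (COL1A1), 0.60 (COL1A2) and -0.16 (COL3A1). Endothelial markers summed to 7.41 to 18.3 CPM and 9.20 to 15.5 CPM, with VWF called lower. PECAM1, the only other endothelial marker tested, was not called (log2 fold change 0.30). Muscle markers summed to 34.8 CPM in parental 2, 15.7 CPM in knockout 4 and 7.185 CPM in parental 4. In the remaining tumours they summed to at most 0.514 CPM, and none of these markers passed the filter. Mouse RNA cannot be told apart from human RNA in these counts, and the part of these other cells in the ligand values was not tested beyond the leukocyte score given above.

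Relatives of the ligand genes gave few counts. MICC, MICD, MICG and RAET1M had 0 counts in all libraries. MICE had 73 counts and RAET1K 38 counts over the 8 libraries, and RAET1E-AS1, which overlaps RAET1E and RAET1G on the opposite strand, had 5.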

How the data were processed

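RNA of 8 H2122 tumours was sequenced, 1 library each. The deposited values are raw counts per gene symbol. Per the submitters' processing notes, the authors used TopHat2 2.1.1, HTSeq 0.11.0 and hg38; annotation, strand setting and any removal of mouse reads are not given in the sources used here. The 5 summary lines were left out.

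From the counts, 59050 symbols were filtered by filterByExpr (minimum count 10, minimum total 15), which left 16219 genes. Knockout was compared with parental by the edgeR 4.0.16 quasi-likelihood F-test (R 4.3.3) with TMM scaling and Benjamini-Hochberg adjustment over all genes, and calls were made at 0.05. CPM is relative to the TMM-scaled library. Levels per kilobase used joined GENCODE 29 exons. Pair ratios used a pseudocount of 0.5 counts. Exact permutation tests were two-sided. The fit was tested on simulated data.

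The members and gene lists were chosen with earlier results of these data known. Named genes are all members, SMARCA4, list genes that were called with up to 4 uncalled ones of smallest p, and 2 most alike genes per member; neighbours, markers and relatives were named after their values were seen. Protein identity was replaced by coding-sequence identity. Alternatives were other scalings, DESeq2 1.42.0, limma 3.58.1 (voom), other filters, a replicate block, a leukocyte covariate and leaving out libraries. A few genes that this rule and the lists name are not reported here.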

Additional observations from a re-analysis of the deposited data

Results flagged for a closer look

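In 30 sets of 4 tumours, formed from the ligand genes, SMARCA4 and the called genes of the pathway lists, 3 held a tumour far from the other 3, measured as the gap to the nearest value over the range; chance gives this in about 5% of sets. For ULBP1, knockout 2 was highest at 0.439 CPM, against 0.0467 to 0.0935 in the other knockout tumours. For HSF1, knockout 1 was highest at 75.3 CPM, against 66.7 to 68.1 CPM. For CD58, parental 4 was highest at 27.1 CPM, against 20.9 to 21.7 CPM. None of these sets is from a ligand gene that was called changed.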

How the results depend on the processing

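MICA, MICB and RAET1E stayed called and higher in each of 10 other analyses of all 8 libraries and in each of 8 fits without 1 library, and the count of called ligand genes was 3 with each. The log2 fold changes over these 10 were 0.52 to 0.58 for MICA, 1.54 to 1.77 for MICB and 0.63 to 0.69 for RAET1E, and without 1 library 0.47 to 0.59, 1.33 to 1.91 and 0.56 to 0.70. RAET1G, ULBP2, ULBP3 and RAET1L were called in none of the fits they entered; RAET1L did not pass the filter of CPM 1 in 4 libraries. Without 1 library RAET1L ranged from -0.54 to 0.13 and the ULBP1 ratio from 0.445 to 1.17. Replicate numbers did not pair the tumours (correlations of same-numbered deviations -0.187 to 0.0863). With the number as a replicate block, MICA was at 0.54 (edgeR adjusted p = 0.00906), MICB at 1.62 (adjusted p = 0.0268) and RAET1E at 0.66 (adjusted p = 0.0214); 1 regulator, 1 other activating ligand and 1 inhibitory ligand were called, and the calls of DDX39B (adjusted p = 0.0509) and MSH5 (adjusted p = 0.0657) were lost.

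List counts moved more, and the cause was not tested. The share of all genes called in each setting is not given here. These list counts and the ligand count above are therefore a description of the settings, not a result about the lists. Shedding genes called numbered 1, then 3 with upper-quartile scaling and 0 to 3 without 1 library. Regulators numbered 3, then 1 with no filter, 6 with the leukocyte covariate and 1 to 5 without 1 library. Other activating or adhesion ligands numbered 2, then 1 with no filter, 3 with upper-quartile scaling or the covariate and 1 to 3 without 1 library. Inhibitory ligands numbered 0, then 1 with library size alone, 2 with DESeq2, 3 with no filter, 1 with the top 10 genes left out, 2 with the covariate, and 0 to 3 without 1 library (2 without parental 1, 3 without parental 4). PDIA6 turned to -0.0048 with library size alone, -0.0075 with no filter and -0.047 without parental 2 and 3, and ranged from -0.029 to 0.046 without 1 library. Without parental 2 and 3 CD48 turned to 0.45 and HLA-B to 0.76. Without 1 library the pair differences ranged from -0.40 to 0.14 for ULBP3 against RAET1L, -0.17 to 0.048 for ULBP2 against ULBP3 and -0.39 to 0.093 for ULBP2 against RAET1L. Over SMARCA4 and the named list genes, 341 of 417 alternative values kept their direction and call. MICB, RAET1L and ULBP1 are limited by depth, at 50, 80 and 15 parental counts in all.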
